A study of Mus musculus with 8 samples.

Results

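The NR4A family and 7 other nuclear receptors were followed across tumour-infiltrating CD8 T cells of 2 genotypes and 2 sorted populations. The 10 genes are Nr4a1, Nr4a2, Nr4a3, Nr3c1, Rora, Rxra, Rxrb, Rara, Vdr and Nr1d2. They were chosen by gene symbol and were all among the 24976 genes of the count table. The low-count filter, which left 13073 genes for testing, kept 9 of the 10 and removed Vdr.

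RNA was sequenced in bulk from CD3e+CD8+ cells recovered from tumours of B16-OVA, mouse melanoma cells that make ovalbumin, grown in Rag2-/- mice, which lack T and B cells of their own. The tumour cells were injected under the skin 10 days ahead of the transfer of CD8 T cells, and the infiltrating cells were collected 10 days after it. Donor mice were WT, or carried Cd8Cre, NR4a1flox/flox and NR4a2flox/flox with OT-ITg/+, a transgenic receptor for ovalbumin, and are called dKO in the labels. The sort gave PD1+Tim3- and PD1+Tim3+ populations, and 2 libraries were made for each of the 4 groups, 8 in all. OT-I is not mentioned for WT donors in the labels, so receptor and genotype cannot be told apart. Cre is driven by a Cd8 promoter, so the deletion applies to CD8-lineage cells. The sources used here do not name the floxed exons. Age and sex are not in the labels either. Each sample came from 1 implanted mouse, but the labels do not link the libraries of one mouse across populations. Fewer cells of a type and less RNA per cell cannot be told apart in bulk libraries, and p-values measure the spread between these samples.

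Nuclear receptors are transcription factors with a DNA-binding domain made of zinc fingers and a ligand-binding domain. NR4A proteins differ from most of the family in that they act without a known hormone ligand: T cell receptor signals induce their genes within minutes to hours, and in tumours and chronic infection they promote the dysfunctional state of CD8 T cells. Retinoid X receptors are the shared partner of retinoic acid, vitamin D and several other receptors and can also pair with NUR77 and NURR1, whereas the glucocorticoid receptor acts mainly as a homodimer and the ROR and REV-ERB receptors as monomers on a shared element of the circadian clock.

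Total counts ran from 1944999 to 13418762 per library, and ribosomal RNA genes took 1.60% to 2.37% of counts in PD1+Tim3- libraries against 6.52% to 8.36% in PD1+Tim3+. Havcr2, the gene of Tim3, separated the sorted populations, at 2.28 to 3.62 against 41.8 to 58.2 counts per 1e6 counts of the scaled library (CPM). Pdcd1, the gene of PD1, was at 45.0 to 67.3 CPM throughout. The summed level of 8 CD8 T cell markers was 3651 to 4728 CPM, and Cd4 was at 0 to 0.525 CPM. Of the NK cell markers Ncr1 was at 0 to 0.21 CPM and Klrb1c at 5.97 to 7.26 CPM in PD1+Tim3- and 7.07 to 14.3 in PD1+Tim3+ libraries, highest in WT PD1+Tim3+. The Y-linked genes Ddx3y, Eif2s3y, Kdm5d and Uty rose and Xist fell in the libraries labelled dKO averaged over populations, while every library held counts of both kinds. For example, Ddx3y was at 18.9 to 31.4 CPM in WT and 48.8 to 58.0 in the libraries labelled dKO, and the part of a sex difference in any genotype result was not tested.

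The sequences ahead of the start sites of the NR4A genes are shown because the family is induced as a group and these windows share an element. Windows of 250 bases ahead of the RefSeq start, in GRCm38.p6, were found for 9 of the 10 members, 14 windows in all. The 3 NR4A genes are well known targets of CREB-family factors, which bind the cAMP response element. Its core, TGACG, was searched on both strands as TGACG or CGTCA. It occurred 4 times in each of the 3 NR4A windows. Of all 32851 windows of this length 17.8% held it at least once and 0.137% held it 4 or more times. Among the other members only window 1 of Rxrb and window 4 of Rara held it, 1 match each. The NR4A windows lie at chr15:101266596-101266845 on the forward strand for Nr4a1, chr2:57124004-57124253 on the reverse strand for Nr4a2 and, stopped before the first annotated exon base, chr4:48045055-48045152 on the forward strand for Nr4a3, with 3 of its 4 matches ahead of that point. Capitals mark the core on either strand.

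Nr4a1: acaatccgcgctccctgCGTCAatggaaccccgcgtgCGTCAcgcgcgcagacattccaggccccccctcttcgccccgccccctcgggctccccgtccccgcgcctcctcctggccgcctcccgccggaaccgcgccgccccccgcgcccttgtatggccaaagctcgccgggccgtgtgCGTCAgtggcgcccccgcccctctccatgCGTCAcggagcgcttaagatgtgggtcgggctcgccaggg
Nr4a2: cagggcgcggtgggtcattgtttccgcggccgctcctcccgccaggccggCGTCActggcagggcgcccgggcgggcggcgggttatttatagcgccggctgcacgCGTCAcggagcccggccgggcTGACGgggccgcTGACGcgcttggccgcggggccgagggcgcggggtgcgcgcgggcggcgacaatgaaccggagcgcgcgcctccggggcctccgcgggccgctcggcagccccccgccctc
Nr4a3: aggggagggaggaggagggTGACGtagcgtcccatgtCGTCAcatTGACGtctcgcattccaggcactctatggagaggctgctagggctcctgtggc

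The element that NR4A proteins bind as monomers, AAAGGTCA or its reverse complement TGACCTTT, was present in 1 of the 14 windows of members, window 2 of Rxra at chr2:27709042-27709291 on the forward strand. It occurred in 1.34% of all windows. That window also held the shorter nuclear receptor core AGGTCA, or TGACCT on the other strand, 2 times, one of them inside the longer element, and 14.0% of all windows held the core. The single other match of the core among the members was in the window of Nr1d2. Rxra was looked at because it and Nr4a1 are the members with a genotype call below. Window 2 of Rxra is printed because it holds the longer element, and both elements are in capitals. Window 1 of Rxra held neither and is not printed. A match of letters is a description of the sequence and shows no binding.

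Rxra: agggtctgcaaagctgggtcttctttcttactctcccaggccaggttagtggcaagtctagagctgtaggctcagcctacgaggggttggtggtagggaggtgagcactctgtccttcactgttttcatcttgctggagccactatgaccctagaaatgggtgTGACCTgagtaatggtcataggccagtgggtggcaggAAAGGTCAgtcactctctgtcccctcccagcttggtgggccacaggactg

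Nr4a1, which encodes NUR77, was higher in the libraries labelled dKO than in WT, against the direction that its label gives. It is one of the 2 genes the label names as deleted. WT libraries held 979 and 824 CPM (PD1+Tim3-) and 803 and 789 CPM (PD1+Tim3+). Those labelled dKO held 1331 and 1489 CPM (PD1+Tim3-) and 1194 and 1175 CPM (PD1+Tim3+). The 4 libraries labelled dKO lay above all 4 WT libraries. Averaged over both populations the log2 fold change was 0.61 ± 0.09 (SE), with an adjusted p of 0.00988 (edgeR quasi-likelihood test, Benjamini-Hochberg over all genes tested). The summed NK cell markers moved with genotype, at 61.6 to 72.3 CPM in WT and 36.0 to 43.0 in the libraries labelled dKO. They were mostly Eomes, which CD8 T cells also express, at 55.6 to 62.4 against 26.8 to 36.2 CPM, and the part of this in the Nr4a1 values was not tested. Counts per gene may include parts of the gene that are not deleted, and whether the protein was lost cannot be read from them.

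Nr4a2, the other targeted gene, encodes NURR1 and was close to level in all 8 libraries. Among PD1+Tim3- libraries it was at 990 and 958 CPM (WT) and 937 and 929 CPM (dKO label). In the PD1+Tim3+ sort it was at 1034 and 979 CPM (WT) and 954 and 984 CPM (dKO label). The libraries of both genotypes overlapped. Its average log2 fold change was -0.06 ± 0.08, adjusted p 0.938, with a 95% interval of -0.23 to 0.12, so that a fall by a whole log2 unit lies outside the interval. In each population the interval was also narrow, -0.31 to 0.19 in PD1+Tim3- and -0.30 to 0.19 in PD1+Tim3+ cells.

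Nr4a3, which encodes NOR1 and was not targeted, ran from 333 to 377 CPM in WT and from 377 to 403 in the libraries labelled dKO. The highest WT library and the lowest labelled dKO differed only in the fifth digit, at 376.835 and 376.849 CPM. The average log2 fold change was 0.14 ± 0.08 and did not pass, adjusted p 0.709. Within a library the ratio of 2 members' counts does not depend on scaling. The ratio of Nr4a3 to Nr4a2 counts was 0.336 to 0.385 in WT and 0.401 to 0.420 in the libraries labelled dKO, which did not overlap. Neither gene passed by genotype. The share of other gene pairs whose ratio separates this way was not computed.

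The balance within the family moved towards Nr4a1 in the libraries labelled dKO. The ratio of Nr4a1 to Nr4a2 counts was 0.989 and 0.861 (WT) against 1.42 and 1.60 (dKO label) among PD1+Tim3- libraries. For PD1+Tim3+ libraries it was 0.777 and 0.805 (WT) against 1.25 and 1.19 (dKO label). No WT library reached the lowest value labelled dKO, and the share of other gene pairs that separate this way was not computed. Per kilobase of exon, Nr4a1 made up 46.9% to 53.1% of the NR4A total in WT and 56.8% to 63.9% in the libraries labelled dKO. The family total per kilobase was 622 to 688 CPM in WT and 767 to 870 in the libraries labelled dKO. Between the populations no NR4A gene passed in either genotype, with log2 differences from -0.25 to 0.11.

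**Figure D1:**
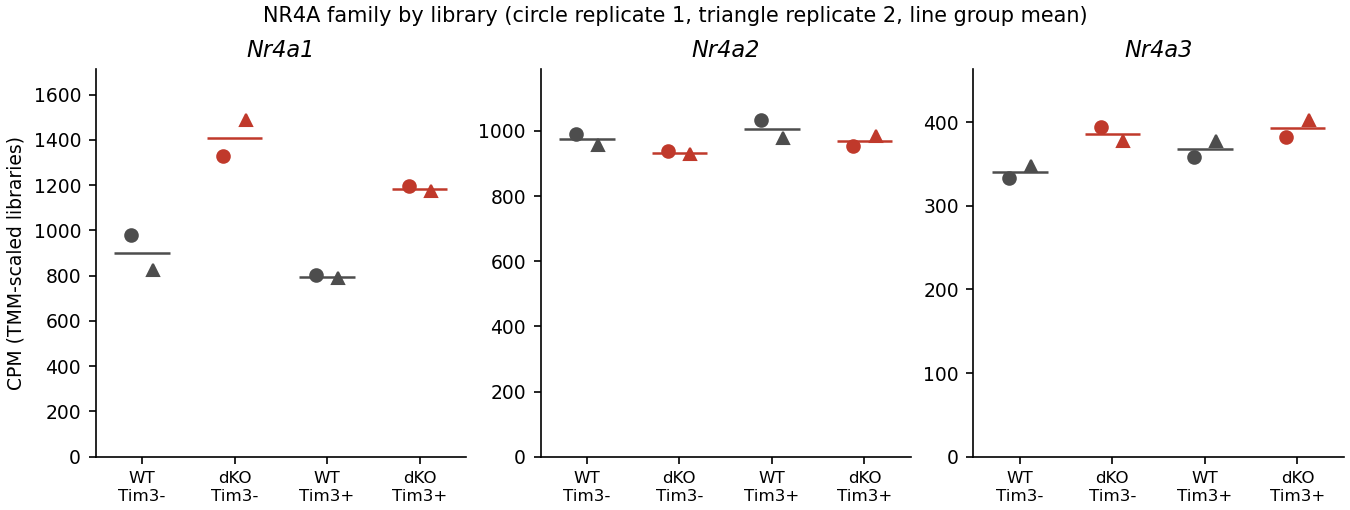
Levels of Nr4a1, Nr4a2 and Nr4a3 in CPM of the scaled library (vertical axis from 0) in each of the 8 libraries, by group on the horizontal axis; circles are replicate 1, triangles replicate 2 and lines the mean of the 2 libraries. For Nr4a1 the 4 libraries labelled dKO lie at 1175 to 1489 CPM, above the WT libraries at 789 to 979, while Nr4a2 stays between 929 and 1034 CPM.

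Tested one population at a time, 0 of the 9 members passed in PD1+Tim3- cells, where 0.0459% of all genes passed, and 0 of 9 in PD1+Tim3+ cells, where 0.627% passed. In each population 3 members had an unadjusted p under 0.05, and the share of all genes at that cut was not computed. DESeq2 also called 0 in both, where 0.0459% and 0.632% of all genes passed. Limma-voom called 0 in PD1+Tim3- and 1, Nr4a1, in PD1+Tim3+ cells, where 0% and 0.566% of all genes passed. The values of Nr4a1 were 0.64 ± 0.13, adjusted p 0.126, and 0.57 ± 0.13, adjusted p 0.0944, in that order. Averaged over populations 2 of 9 members rose, Nr4a1 and Rxra, and 0 fell, where 0.864% of all genes passed in either direction and 0.398% rose. The interaction, the difference of the genotype effect between the populations, was called for 0 of 9 members and for 0% of all genes by edgeR. At an unadjusted p under 0.05 it held 1 member, Rxrb, and the share of all genes at that cut was not computed. DESeq2 and limma-voom called 0 members, where 1.9% and 0% of all genes passed. For Nr4a1 the interaction was -0.07 ± 0.18, adjusted p 0.922.

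The call of Nr4a1 averaged over populations was lost without replicate 2 of PD1+Tim3- labelled dKO, adjusted p 0.0700, without the first WT PD1+Tim3+ library, 0.0760, and in the absence of the second, 0.108. With libraries summed per genotype and number it was also lost, 0.56 with an adjusted p of 0.249. Its log2 fold change stayed between 0.55 and 0.68 over 16 alternatives, 12 of which called it. All 4 libraries labelled dKO lay above all 4 WT libraries for 4 of 9 members, Nr4a1, Nr4a3, Rxra and Rara, while 1.41% of all genes did so. On totals without scaling only Nr4a1 and Rxra did, and with upper quartile scaling Nr4a3 dropped out.

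Rxra, which encodes the retinoid X receptor alpha, rose with the dKO label in the average over populations, from very low counts. Among PD1+Tim3- libraries it had 4 and 5 counts (WT) against 14 and 5 (dKO label), or 0.57 and 1.04 against 2.53 and 2.62 CPM. Among PD1+Tim3+ libraries it had 11 and 34 counts (WT) against 28 and 35 (dKO label), or 1.87 and 2.43 against 5.21 and 6.47 CPM. Each WT library was below every library labelled dKO. Averaged over populations the genotype difference was 1.55 ± 0.30 on the log2 scale, adjusted p 0.0383. Of 16 alternatives 6 called it, with values of 1.34 to 1.76. Without replicate 1 of PD1+Tim3- labelled dKO the adjusted p was 0.376, without replicate 1 of WT PD1+Tim3- it was 0.226, and it stayed under the threshold in the absence of replicate 1 of PD1+Tim3+ labelled dKO alone among the 8 libraries.

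Macrophages express Rxra, so their markers were summed in each library. The 8 macrophage and monocyte markers in the table, of 10 listed, summed to 15.98 to 22.2 CPM in WT and 8.92 to 21.0 in the libraries labelled dKO, and to 8.92 to 22.2 in PD1+Tim3- against 15.5 to 16.8 in PD1+Tim3+ libraries. Most of the sum was Cd68, at 5.77 to 10.9 CPM, and Cd14, at 3.15 to 10.8, while Csf1r was at most at 0.90 CPM, C1qa at 0.34 and Lyz2 at 0.71. The summed ranges overlapped between genotypes and between populations. The 4 erythroid markers summed to 1.66 to 6.11 CPM in PD1+Tim3- and 4.28 to 87.3 in PD1+Tim3+ libraries, and the part of either cell type in the Rxra values was not tested.

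Rxrb, the beta form of the same partner receptor, was more abundant than Rxra in every library. Among PD1+Tim3- libraries it was at 21.6 and 27.2 CPM (WT) and 32.0 and 29.9 CPM (dKO label). In the PD1+Tim3+ sort it was at 29.4 and 33.7 CPM (WT) and 21.2 and 29.7 CPM (dKO label). The genotype difference was 0.37 ± 0.19 in PD1+Tim3- and -0.32 ± 0.17 in PD1+Tim3+ cells, and neither passed. Its interaction, -0.69 ± 0.25, had an unadjusted p of 0.0183 and an adjusted p of 0.382 by edgeR.

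Rara encodes the retinoic acid receptor alpha, which pairs with retinoid X receptors. Among PD1+Tim3- libraries it was at 29.1 and 29.0 CPM (WT) and 35.8 and 38.3 CPM (dKO label). For PD1+Tim3+ libraries it was at 33.5 and 31.6 CPM (WT) and 40.4 and 44.2 CPM (dKO label). The libraries of the genotypes did not overlap. The averaged log2 difference was 0.36 ± 0.08 and did not pass, adjusted p 0.0908. It passed in 0 of 16 alternatives, with values of 0.33 to 0.39. Vdr, the vitamin D receptor gene, had 4 and 1 counts (WT) and 2 and 2 (dKO label) among PD1+Tim3- libraries. Among PD1+Tim3+ libraries it had 0 and 9 (WT) and 3 and 2 counts (dKO label). The count of 0 among 5489394 allows a level of up to 0.508 CPM. In the fit without the low-count filter Vdr passed in 0 of the 4 comparisons of genotype or population, with log2 values of -0.24 to 0.38 and an adjusted p of 1 in each (edgeR).

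**Figure D2:**
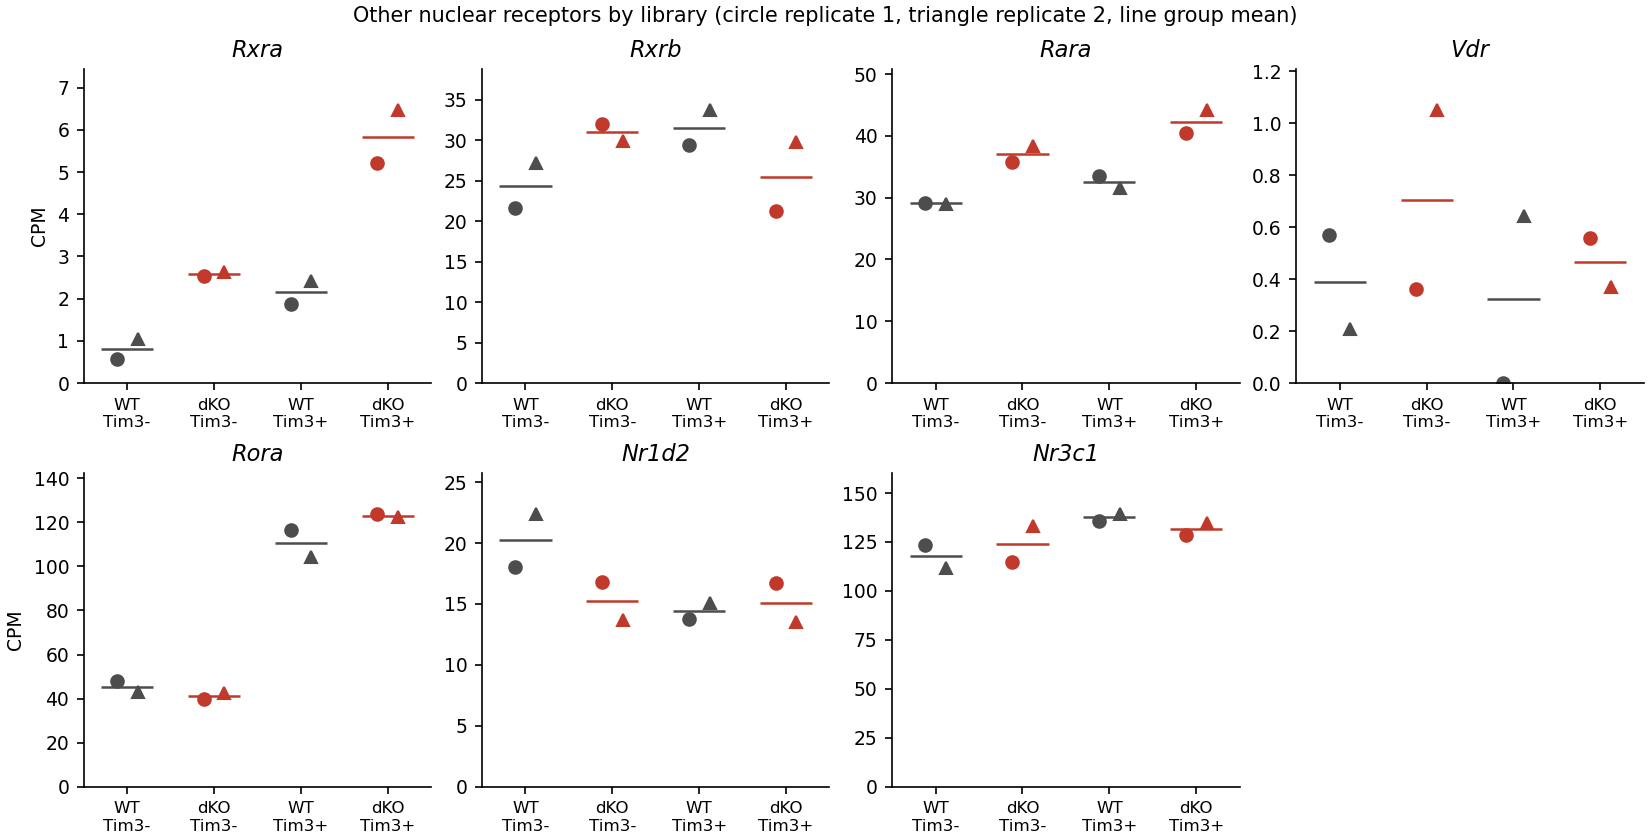
Levels of Rxra, Rxrb, Rara, Rora, Nr1d2, Nr3c1 and Vdr in CPM of the scaled library (vertical axes from 0, 1 panel a gene) in each of the 8 libraries by group; circles are replicate 1, triangles replicate 2 and lines group means. Rora lies at 39.6 to 47.8 CPM in PD1+Tim3- and 104 to 124 in PD1+Tim3+ libraries, and Rxra at 0.57 to 2.43 CPM in WT and 2.53 to 6.47 in libraries labelled dKO.

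Rora, which encodes ROR alpha, rose in PD1+Tim3+ cells of both genotypes. WT libraries held 47.8 and 42.9 CPM (PD1+Tim3-) against 116 and 104 CPM (PD1+Tim3+). Those labelled dKO held 39.6 and 42.5 CPM (PD1+Tim3-) against 124 and 122 CPM (PD1+Tim3+). All 4 PD1+Tim3+ libraries were above all 4 PD1+Tim3- libraries, as were those of 12.3% of all genes. The log2 difference was 1.28 ± 0.11 in WT, adjusted p 7.76e-05, and 1.59 ± 0.12 in cells labelled dKO, adjusted p 2.63e-05. Each of 17 alternatives in each genotype called it, with values of 1.19 to 1.37 in WT and 1.54 to 1.64 in cells labelled dKO. The interaction was 0.32 ± 0.16 and did not pass, adjusted p 0.550. Rora shares 82 of its 11245 exon bases with Gm15511, a gene on the opposite strand, and reads there cannot be assigned to one of the genes without the strand setting.

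Between the populations 2 of 9 members passed in WT, Rora and Rxra, both higher in PD1+Tim3+ cells, where 17% of all genes passed and 8.25% were higher. In cells labelled dKO 1 of 9 passed, Rora, also higher, where 9.93% of all genes passed and 5.21% were higher. With 9 members tested, these counts stand near that background. Rxra differed by 1.52 ± 0.45 in WT, adjusted p 0.0408, a call that 7 of 17 alternatives made. In cells labelled dKO it differed by 1.184 ± 0.37, adjusted p 0.0687. Without replicate 1 of WT PD1+Tim3- the difference of Rxra in WT was 1.10, adjusted p 0.364. The ribosomal RNA share and the summed CD4 and regulatory T cell markers, at 81.7 to 101 CPM in PD1+Tim3- and 142 to 172 in PD1+Tim3+ libraries, moved with the population. That list was mostly Il2ra, at 70.9 to 88.2 against 117 to 150.004 CPM, and Zbtb7b, a factor of the CD4 lineage, was also higher, at 9.05 to 11.02 against 18.8 to 24.9 CPM. Cd4 was at 0 in all PD1+Tim3+ libraries, and Foxp3 was at 0.21 to 1.05 against 0.55 to 2.55 CPM. Of 5 sex-linked genes 1, the Y-linked Ddx3y, was lower in PD1+Tim3+ cells of WT, where 17% of all genes passed. That call was made by 13 of 17 alternatives, and in cells labelled dKO 0 of the 5 passed. The part of these in the values of Rora and Rxra was not tested.

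Nr1d2 encodes REV-ERB beta, a repressor that binds the element ROR proteins use. Among PD1+Tim3- libraries it was at 18.1 and 22.4 CPM (WT) and 16.8 and 13.6 CPM (dKO label). In the PD1+Tim3+ sort it was at 13.8 and 15.1 CPM (WT) and 16.8 and 13.5 CPM (dKO label). WT PD1+Tim3- libraries were the highest. The difference between populations was -0.46 ± 0.17 in WT, adjusted p 0.0867, and -0.06 ± 0.20 in cells labelled dKO, adjusted p 0.898, so neither passed.

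Nr3c1, the glucocorticoid receptor gene, ran from 112 to 139 CPM in WT and from 115 to 135 in the libraries labelled dKO. It was at 112 to 133 CPM in PD1+Tim3- and 128 to 139 in PD1+Tim3+ libraries. Both pairs of ranges overlapped. Its log2 differences by genotype were 0.07 ± 0.12 and -0.06 ± 0.11, and those by population 0.22 ± 0.11 in WT and 0.10 ± 0.12 in cells labelled dKO, and none passed.

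**Figure D3:**
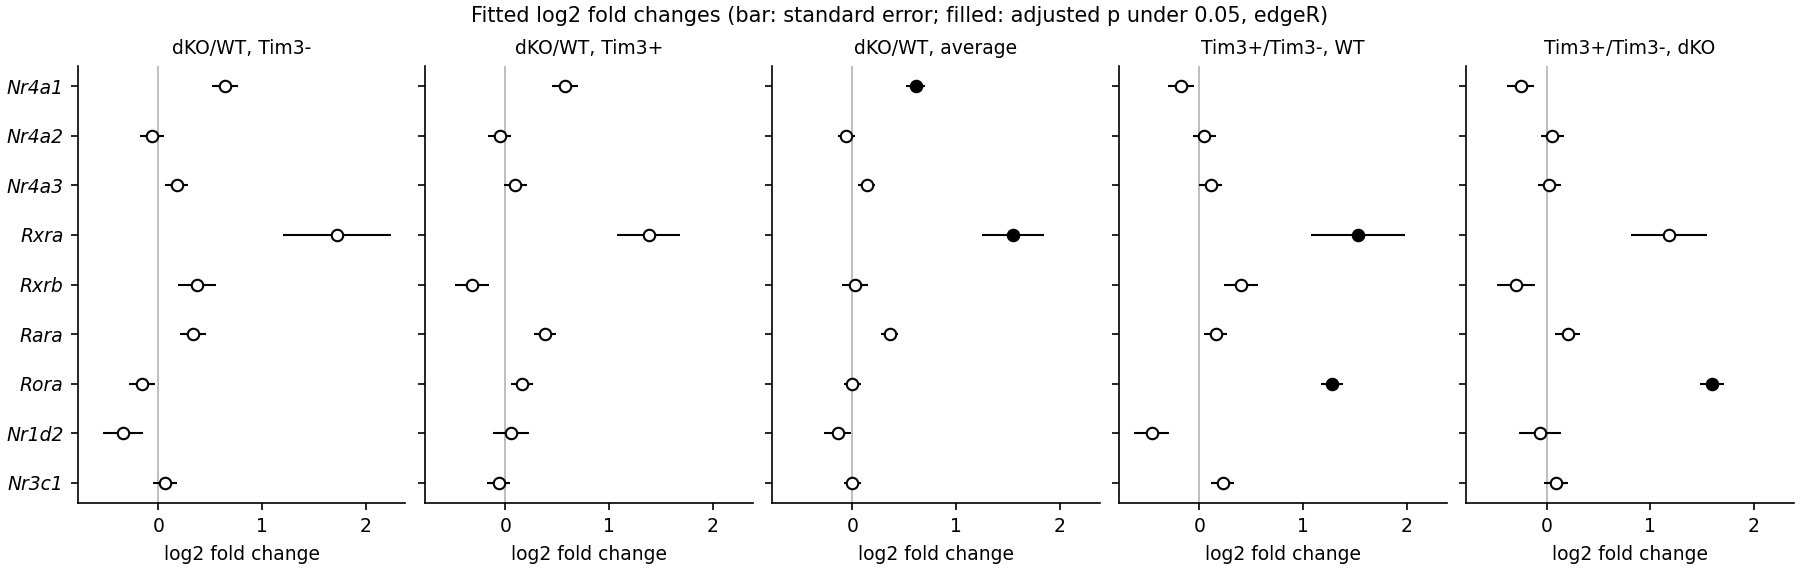
Fitted log2 fold changes (horizontal axes) of the 9 tested members in 5 comparisons, 1 panel each, with bars for the standard error and filled points for an adjusted p under 0.05 in edgeR. Filled points are Nr4a1 (0.61) and Rxra (1.55) in the genotype average, Rora in both population comparisons (1.28 and 1.59) and Rxra between the populations of WT (1.52).

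The positions of the members, in GRCm38, were chromosome 15 from 101254269 to 101274795 on the forward strand for Nr4a1, chromosome 2 from 57106830 to 57124003 on the reverse strand for Nr4a2 and chromosome 4 from 48045153 to 48086447 on the forward strand for Nr4a3. Rxra lies on chromosome 2 from 27676440 to 27762957, Rora on chromosome 9 from 68653786 to 69388246, Rara on chromosome 11 from 98927818 to 98974942 and Rxrb on chromosome 17 from 34031812 to 34038399, all on the forward strand. Nr1d2 lies on chromosome 14 from 18204054 to 18239127 and Vdr on chromosome 15 from 97854425 to 97910630, both on the reverse strand. The printed windows of Nr4a1 and Rxra lie inside the annotated span of their gene and overlap none of its exons, and those of Nr4a2 and Nr4a3 end where their gene begins.

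Per kilobase of exon the NR4A genes were the most abundant nuclear receptors in these cells. Of 49 superfamily genes looked for, 44 were in the table and 24 passed the filter. Nr4a1 averaged 400.5 CPM per kilobase over the 8 libraries (294 to 556), Nr4a2 259 (248 to 276) and Nr4a3 64.9 (58.2 to 70.4). In each of the 4 groups the order Nr4a1, Nr4a2, Nr4a3 held with no overlap between neighbours. In WT the place of Nr4a1 above Nr4a2 rests on the exon lengths used. By counts alone the ratio of Nr4a1 to Nr4a2 was 0.777 to 0.989 in WT libraries. The annotation used for counting is not given. Nr1h2, which encodes the oxysterol receptor LXR beta, followed with 21.0 CPM per kilobase and Nr3c1 with 19.5, apart from Rorb, whose values are given below. Rxrb averaged 9.72, Rara 8.23, Rora 7.11 and Nr1d2 3.48 CPM per kilobase. Rxra was rank 20 with 0.557 and Vdr rank 31 with 0.108 CPM per kilobase. Rora moved from rank 12 in both PD1+Tim3- groups to rank 9 in WT PD1+Tim3+ and rank 7 in PD1+Tim3+ labelled dKO. In WT PD1+Tim3+ cells Rora, at 9.28 to 10.4 CPM per kilobase, overlapped with Rxrb, the rank above it, at 10.2 to 11.7. In PD1+Tim3+ cells labelled dKO Rora, at 10.9 to 11.01, lay above Esrra, the rank below it, at 10.1 to 10.5. There Rora overlapped with Rorb, the rank above it, at 10.6 to 18.85.

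**Figure D4:**
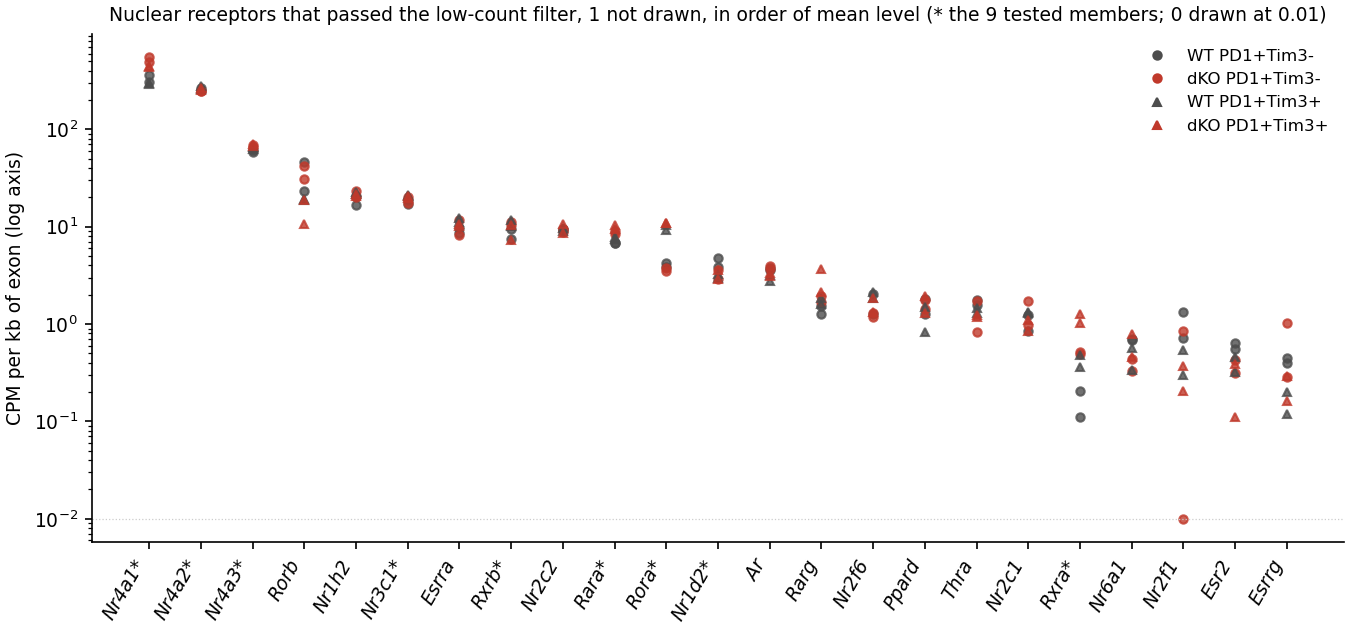
Levels of the nuclear receptor genes that passed the low-count filter, with 1 of the 24 not drawn, in CPM per kilobase of exon on a log axis, in order of their mean over 8 libraries; colours give the genotype label, circles PD1+Tim3- and triangles PD1+Tim3+ libraries, and values of 0 are drawn at the bottom line. The NR4A genes lie at the left, from 58.2 to 556 CPM per kilobase, and Rxra at 0.111 to 1.27.

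Rorb, which encodes ROR beta, fell in PD1+Tim3+ cells labelled dKO (-1.30 ± 0.31, adjusted p 0.0278), but its libraries within a group differed by up to 1.98-fold. Of 17 alternatives 12 called it, with values of -1.77 to -0.94. The call was lost without replicate 1 or 2 of PD1+Tim3- labelled dKO, adjusted p 0.0941 and 0.177, and without replicate 1 of PD1+Tim3+ labelled dKO, 0.101. Among PD1+Tim3- libraries it was at 435 and 220 CPM (WT) and 290.1 and 402 CPM (dKO label). Among PD1+Tim3+ libraries it was at 183 and 176 CPM (WT) and 101 and 178 CPM (dKO label).

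Genes with the profile most like that of each NR4A gene were taken as those with the smallest root mean square difference of log2 CPM, centred on the gene's mean, over the 8 libraries. For Nr4a1, whose own spread about its mean was 0.332 on that scale, they were 4833417C18Rik at 0.117, Zc3hav1l at 0.121, Gm37416 at 0.132, Tgif2 at 0.142 and Gla at 0.144, against a median of 0.416 over all genes. For Nr4a2, whose spread was 0.0465, they were Phf3, Ccnk, Eif4g2, Cdc27 and Aim2, at 0.0278 to 0.0363. For Nr4a3, whose spread was 0.0863, they were Exoc5, Nxpe3, Madd, Rnps1 and Nt5c3, at 0.0358 to 0.0474. Nr4a2 and Nr4a3 were therefore matched with genes that varied little at all. The 5 genes matched with Nr4a1 averaged 1.53, 24.8, 12.5, 25.3 and 35.4 CPM in the order given. Nr4a1 itself was at 789 to 1489 CPM, and the first match, at 1.53 CPM, rests on few counts.

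T cell receptor signals induce a set of early genes along with the NR4A family. Averaged over populations 6 of 18 rose in the libraries labelled dKO, Bhlhe40, Egr1, Ier3, Irf4, Jun and Nfkbid, 0 fell and 12 did not pass, where 0.864% of all genes passed. In each population by itself 0 of 18 passed by edgeR, DESeq2 or limma-voom. By edgeR 0.0459% of all genes passed in PD1+Tim3- and 0.627% in PD1+Tim3+ cells. Some of the 16 alternatives run in each population did call genes of this list. At an unadjusted p under 0.05 there were 13 in PD1+Tim3- and 9 in PD1+Tim3+ cells (edgeR). The share of all genes at that cut was not computed. The fitted average was above 0 for 17 of 18, with a median log2 of 0.35 against 0.00 over all genes. The count ran from 0 to 9 over 15 alternatives, which leave out the fit of libraries summed per genotype and number. The Y-linked and NK values above moved with genotype here too, their part not tested. Between the populations of WT 6 rose and 2 fell, where 17% of all genes passed, and in cells labelled dKO 4 rose and 4 fell, where 9.93% did. Bhlhe40, a repressor of clock genes that activation also induces, was higher in PD1+Tim3+ cells by 1.14 ± 0.12 in WT, adjusted p 2.76e-04, and Dusp5, a phosphatase that acts on ERK, by 1.10 ± 0.18, adjusted p 0.00336. Egr3, a zinc finger factor of the same early response, fell by 0.64 ± 0.11 on the log2 scale in WT, adjusted p 0.00384, and Myc fell by 0.79 ± 0.12 in cells labelled dKO, adjusted p 0.00308. All 4 values come from the edgeR fit with Benjamini-Hochberg adjustment. Of 17 alternatives each, 17 called Bhlhe40, 17 Dusp5, 16 Egr3 (not without replicate 2 of WT PD1+Tim3+, adjusted p 0.0504) and 16 Myc (not without replicate 1 of PD1+Tim3- labelled dKO, adjusted p 0.0812).

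Of 12 tested regulators of Nr4a1 transcription, such as MEF2 factors and their histone deacetylase partners, 0 passed by genotype in the average. There 0.864% of all genes passed. At an unadjusted p under 0.05 it was 1 of the 12, and the share of all genes at that cut was not computed. DESeq2 and limma-voom also called 0. Crem, a CREB-family modulator, rose in PD1+Tim3+ cells of WT by 0.33 ± 0.10, adjusted p 0.0444, a call made by 6 of 17 alternatives. Hdac7 stood at -0.34 ± 0.13 in PD1+Tim3+ against PD1+Tim3- cells labelled dKO, adjusted p 0.129 (edgeR). Of 17 tested coregulators of nuclear receptors 1 fell and 0 rose in the genotype average, where 0.864% of all genes passed. That gene was Nrip1, which encodes the corepressor RIP140, at 75.4 and 78.8 CPM in WT PD1+Tim3- against 52.5 and 51.4, and 72.9 and 65.6 in WT PD1+Tim3+ against 55.7 and 61.0. In the average it was at -0.40 ± 0.08 on the log2 scale, adjusted p 0.0354 (edgeR), and 6 of 15 alternatives called it. Between the populations 2 of the 17 fell and 0 rose in each genotype, which is near the share of all genes that passed, 17% in WT and 9.93% in cells labelled dKO. In WT Ncoa3, a steroid receptor coactivator, fell by 0.46 ± 0.12, adjusted p 0.0201, and Ppargc1b, a coactivator of mitochondrial genes, fell by 0.79 ± 0.17 in cells labelled dKO, adjusted p 0.0191. Med1, the Mediator subunit that nuclear receptors contact, fell in PD1+Tim3+ cells of WT (-0.86 ± 0.25, adjusted p 0.0344) and was at -0.29, adjusted p 0.382, without replicate 1 of WT PD1+Tim3-. Of 17 alternatives each, 12 called Ncoa3, 13 Ppargc1b and 9 Med1, with adjusted p up to 0.174, 0.113 and 0.382.

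Chaperones and targets of the glucocorticoid receptor moved in both directions. Of 16 tested, 2 rose and 2 fell in the genotype average, where 0.864% of all genes passed. Cxcr4, a chemokine receptor gene, fell by 0.69 ± 0.09 on the log2 scale, adjusted p 0.00313 (edgeR), and all 15 alternatives called it. For list genes the alternatives leave out the fit of libraries summed per genotype and number. In that fit 0.112% of all genes passed. Tsc22d3, which encodes the glucocorticoid-induced leucine zipper, fell by 0.48 ± 0.09, adjusted p 0.0343, and 6 of 15 alternatives called it. Il7r, the interleukin 7 receptor gene, rose by 0.55 ± 0.08, adjusted p 0.0122, and Nfkbia, the inhibitor of NF-kappaB, by 0.53 ± 0.09, adjusted p 0.0221. Of 15 alternatives 12 called Il7r and 9 Nfkbia. The highest adjusted p was 0.115 for Il7r, with the second WT PD1+Tim3+ library left out, and 0.179 for Nfkbia, with the first left out. Between the populations of WT 3 rose and 2 fell, where 17% of all genes passed, among them Dusp1, a phosphatase of the MAP kinases, at 0.53 ± 0.13, adjusted p 0.0183, called by 14 of 17 alternatives. The median of the list in the genotype average was 0.02 against 0.00 over all genes. Tsc22d3 was singled out after its value was seen, as one of the 2 genes that fell.

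Clock genes were tested because Rora and Nr1d2 act in the circadian loop. Of 14 tested, 2 rose and 0 fell between the populations of WT, where 17% of all genes passed. In cells labelled dKO 3 rose and 1 fell, where 9.93% of all genes passed. In the genotype average 0.864% of all genes passed, and 1 of the 14, Bhlhe40, rose. Of 15 alternatives 8 called it. Nfil3, a repressor that REV-ERB proteins control, rose in PD1+Tim3+ cells by 0.66 ± 0.13 in WT, adjusted p 0.00609, and 15 of 17 alternatives called it. Hlf, a PAR-family activator, rose in PD1+Tim3+ cells labelled dKO, from 2 and 0 counts to 15 and 11, at a fitted 3.08 ± 0.74, adjusted p 0.0275, called by 11 of 17 alternatives. In the same cells Ciart, a repressor of the CLOCK complex, fell by 0.91 ± 0.22, adjusted p 0.0278, called by 12 of 17 alternatives, with an adjusted p up to 0.136 without replicate 2 of PD1+Tim3- labelled dKO. Hlf was at 6.95, adjusted p 0.142, without replicate 1 of PD1+Tim3- labelled dKO. Of 18 genes of retinoid and vitamin D handling 15 were in the table and 5 were tested. Crabp2, which carries retinoic acid to its receptors, rose in PD1+Tim3+ cells of WT by 1.07 ± 0.31, adjusted p 0.0389, called by 10 of 17 alternatives. Cyp27b1, which makes active vitamin D, stood at -0.91 ± 0.40 in PD1+Tim3+ against PD1+Tim3- cells of WT, adjusted p 0.148 (edgeR). By genotype 0 of the 5 passed by edgeR, DESeq2 or limma-voom in the average, where 0.864% of all genes passed by edgeR. At an unadjusted p under 0.05 it was also 0, and the share of all genes at that cut was not computed.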

How the data were processed

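RNA was sequenced from 8 libraries in 4 groups of 2. The authors deposited one table of whole-number counts per gene, not normalized. Per the submitters' processing notes, mm10, cutadapt 1.18 and Bowtie2 2.2.5 were used. Counting tool, annotation, strand setting and treatment of multi-mapping reads: not given in the sources used here. The final row names no gene, holds the column totals and was left out. CPM stands for counts per 1e6 of the TMM-scaled library.

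Counts were filtered with filterByExpr, scaled by TMM and fitted with edgeR 4.0.16 (quasi-likelihood, R 4.3.3) over the 4 groups, with 4 residual degrees of freedom and Benjamini-Hochberg adjustment over all genes tested. A gene was called at an adjusted p under 0.05. The fit was tested on simulated data. Total counts ran from 1944999 to 13418762, and the limit for a count of 0 is 3 counts and covers counting error only. Alternatives were RLE, upper quartile, no filter, robust estimation, DESeq2 1.42.0, limma-voom (limma 3.58.1), replicate blocks, separate fits and each library left out. Libraries summed per genotype and number, the overlap settings and the alternatives for list genes were chosen after seeing the data.

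Promoter windows are RefSeq's, in GRCm38.p6, and Nr3c1 had no window. Exon lengths are from GENCODE vM21 basic. The members and gene lists were chosen with earlier results of these data known. Up to 4 called genes per list were named by smallest adjusted p, or the 2 with the smallest p where fewer than 2 were called, and the 5 nearest genes for each NR4A gene. Of the nuclear receptor genes tested, 1 is not reported here.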

Additional observations from a re-analysis of the deposited data

How the results depend on the processing

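Of 9 tested members, 0 passed by genotype in PD1+Tim3- cells, 1 without the low-count filter and 1 with robust estimation. Of all genes 0.0459%, 0.98% and 0.428% passed in those fits. In PD1+Tim3+ cells 0 members passed, 2 without the filter, 1 with robust estimation and 1 with limma-voom. There 0.627%, 2.05%, 0.926% and 0.566% of all genes passed. In the average 2 members passed, 1 with DESeq2, 1 with the replicate block by number and 0 with libraries summed per genotype and number. Of all genes 0.864%, 0.757%, 0.528% and 0.112% passed there. Between the populations of WT 2 members passed, 1 with DESeq2, 1 with limma-voom, 1 with the replicate block by number and 1 with the block within genotype. The share of all genes was 17%, 10.3%, 18.2%, 12.8% and 11.7%. For cells labelled dKO that share was 9.93% in the main fit, and for the interaction 0%, or 1.9% with DESeq2. In cells labelled dKO 1 passed, and for the interaction 0, under every alternative run. Leaving out each library gave 0 to 0 by genotype in either population, 0 to 2 in the average and 1 to 2 in WT. The cause of these changes was not tested. Whether same-numbered libraries came from one mouse is not in the labels. Their deviations correlated across genes at -0.181 to 0.0231, which cannot decide it with 2 libraries a group. With the block, Rxra had an adjusted p of 0.0594 in the average and 0.0643 between the populations of WT (edgeR).

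Directions turned in some fits without 1 library, for values near 0 that were never called. By genotype the ranges were -0.036 to 0.18 for Nr3c1 in PD1+Tim3- cells and -0.11 to 0.20 for Nr1d2 in PD1+Tim3+ cells. Between the populations labelled dKO they were -0.013 to 0.20 for Nr3c1, -0.23 to 0.15 for Nr1d2 and -0.0063 to 0.067 for Nr4a3. For the interaction of Nr4a1 the range was -0.22 to 0.053. Low counts of Rxra (4 to 35) and Vdr limit their precision.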
